A study of Mus musculus with 22 samples.

Results

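Ppargc1a, Creb3l3, Fgf21, Angptl4, Cpt1a, Slc25a20, Acadm and Ehhadh are 8 genes of hepatic fatty acid oxidation and the fasting response. They were followed here through the open chromatin around each in mouse hepatocyte nuclei during diet-induced steatohepatitis. A deposited peak was assigned to a gene when the authors' annotation named that gene as the nearest and placed the peak within 50 kb of its transcription start. This gave 59 of the 56787 peaks that lie within 50 kb of a start, out of 68827 peaks in all, and the 8 genes are among 15686 genes with such a peak. Ppargc1a and Cpt1a had 10 peaks each, Angptl4 and Acadm 9, Fgf21 8, Ehhadh 7, Creb3l3 4 and Slc25a20 2. A further 11 peaks assigned to these genes lay beyond 50 kb and were left out. Of the 59 peaks, 13 lay within 1 kb of the start used in the annotation and 46 farther out. Creb3l3 distances are counted from its outer RefSeq start, so a peak over its inner start is among the 46. The members were not chosen by a threshold on measured values, but earlier results of these data were known when they were chosen.

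ATAC-seq, which counts where a transposase can cut DNA, was done on nuclei from the livers of 22 HEP-INTACT mice, all male, in which a tag on the nuclei of hepatocytes allows their immunoprecipitation from the tissue. Mice ate the FPC diet (fructose, palmitate and cholesterol) for 20 weeks or for 7 weeks the CDAHFD, a high-fat diet that lacks choline and has defined amino acids, and the controls of each arm were kept on low fat diet as long. Diseased mice were divided by histology: mild and advanced livers both had steatosis and inflammation, and advanced livers alone had marked fibrosis. Per arm there were 4 libraries of controls, 4 of mild and 3 of advanced disease, 1 per mouse, and an arm's diseased groups share its controls. All groups carry the INTACT tag, and diet and weeks on diet differ together between the arms. Neither the mice's age nor the promoter that drives the tag is stated in the labels.

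Fatty acids enter the mitochondrion through the carnitine shuttle, in which CPT1A makes acylcarnitine and SLC25A20 carries it across the inner membrane. There they are shortened by beta-oxidation enzymes such as ACADM, while EHHADH acts in peroxisomes. In fasting, PPARalpha with its coactivator PGC-1alpha (the product of Ppargc1a) and the membrane-bound transcription factor CREBH (the product of Creb3l3) turn these genes on, together with the secreted proteins FGF21 and ANGPTL4. Accessibility of chromatin is not expression, and no RNA was measured here.

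Sequences before RefSeq starts (assembly GRCm38.p6, the assembly of mm10) were at hand for 7 of the 8 genes, and none was used for Angptl4. Of these, 4 are printed here. Each run is the 250 bases before a RefSeq start, 5′ to 3′ on the gene's strand, with the bases inside a deposited peak in capitals. Fgf21 is at chr7:45615491-45615740 on the minus strand, Cpt1a at chr19:3323051-3323300 on the plus strand, and Acadm at chr3:153944644-153944893 on the minus strand. For Creb3l3 the inner of 2 RefSeq starts is shown, at chr10:81092592-81092841 on the minus strand, since the strongest Creb3l3 peak overlaps it.
Creb3l3: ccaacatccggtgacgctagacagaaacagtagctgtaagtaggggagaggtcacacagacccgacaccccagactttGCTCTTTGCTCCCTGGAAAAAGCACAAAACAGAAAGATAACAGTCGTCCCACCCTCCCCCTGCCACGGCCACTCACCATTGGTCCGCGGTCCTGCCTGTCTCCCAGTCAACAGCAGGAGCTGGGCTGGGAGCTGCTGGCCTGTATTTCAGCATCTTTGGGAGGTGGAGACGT
Fgf21: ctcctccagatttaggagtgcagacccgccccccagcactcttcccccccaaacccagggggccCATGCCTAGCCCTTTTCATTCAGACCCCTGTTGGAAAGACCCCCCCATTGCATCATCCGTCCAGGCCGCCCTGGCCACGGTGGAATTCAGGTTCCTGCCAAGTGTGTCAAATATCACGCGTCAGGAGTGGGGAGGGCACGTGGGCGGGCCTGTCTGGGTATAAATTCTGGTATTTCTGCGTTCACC
Cpt1a: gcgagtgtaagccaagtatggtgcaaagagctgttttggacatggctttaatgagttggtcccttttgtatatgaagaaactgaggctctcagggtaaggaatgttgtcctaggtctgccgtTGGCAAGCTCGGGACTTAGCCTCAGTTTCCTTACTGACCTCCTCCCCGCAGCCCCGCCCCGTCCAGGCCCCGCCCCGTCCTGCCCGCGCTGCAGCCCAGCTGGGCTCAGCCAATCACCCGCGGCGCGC
Acadm: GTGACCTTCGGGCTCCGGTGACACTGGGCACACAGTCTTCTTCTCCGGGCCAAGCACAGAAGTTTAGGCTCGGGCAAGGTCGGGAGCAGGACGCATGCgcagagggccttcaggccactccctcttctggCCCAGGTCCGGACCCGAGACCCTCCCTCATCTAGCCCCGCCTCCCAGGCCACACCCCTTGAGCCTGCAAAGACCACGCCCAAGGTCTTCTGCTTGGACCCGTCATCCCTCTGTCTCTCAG
The peaks cover 186 of the 250 bases at Fgf21, 128 at Cpt1a, 218 at Acadm and 172 at Creb3l3. The peak over the Fgf21 run rose in advanced livers on both diets, the one over the Cpt1a run rose by less, and the Creb3l3 peak passed the test on neither diet. Of the pair of peaks over the Acadm run, the one nearer the start was called on CDAHFD and not on FPC.

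4 motifs were searched on both strands of the 8 windows of 250 bases available for the 7 genes. A pair of AGGTCA in the same direction with 1 base between them, the DR1 element that PPARalpha and RXR bind, was allowed 2 mismatches in its 12 fixed letters. It was found once, in the inner Creb3l3 window, as AGGGGAGAGGTCA at bases 209 to 197 before the start (chr10:81092788-81092800), outside the peak. The same search matched 3.25% of 32536 RefSeq promoters of that length. TGACGTCA, the cyclic AMP response element, with up to 1 mismatch was found as TGATGTCA in the Ppargc1a window and in 10.6% of all promoters. TGANTCA (AP-1) was found in the outer Creb3l3 window, which also holds no peak, and in 6.73% of all promoters. GGAATG (TEAD) was found in the windows of Cpt1a, Ehhadh and Slc25a20, in the last 2 inside the peak, and in 12.6% of all promoters. The Ppargc1a window lies before the outer of the gene's starts used here. The peaks 28093, 24381 and 23982 bp upstream are counted from that outer start, and its other peaks from an inner one. No deposited peak covers the window, whereas a peak lies over the inner start. These 4 motifs do not overlap one another in the windows. A match is a description of the letters and not a site.

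The total count per library lay between 3.79 and 9.33 (in units of 1000000 counts). All 10 hepatocyte markers had peaks, and their summed accessibility was 2249 to 2413 CPM (counts per 1000000) in FPC controls and 1651 to 2024 in advanced FPC, and 2207 to 2528 against 1817 to 2061 on CDAHFD. Other cell types were measured through lists of which many defining genes had no peak. Cholangiocyte markers (6 of 7 with a peak, Cftr without) went from 196 to 220 CPM to 334 to 426 on FPC and from 202 to 250 to 288 to 314 on CDAHFD. Macrophage markers (3 of 8, with Clec4f, Cd68, Vsig4, Timd4 and Marco without a peak) went from 17.0 to 23.9 CPM to 25.4 to 28.6 on FPC and from 16.6 to 22.96 to 26.2 to 29.0 on CDAHFD. Stellate cell markers (2 of 8, with Lrat, Des, Pdgfrb, Col3a1, Dcn and Hand2 without a peak) went from 26.9 to 43.8 CPM to 47.1 to 65.3 on FPC and from 37.6 to 50.8 to 44.8 to 57.4 on CDAHFD. Endothelial markers (6 of 7, Emcn without) went from 155 to 177 CPM to 137 to 146 on FPC and from 177 to 218 to 135 to 166 on CDAHFD. Of the lymphocyte markers, Ptprc had a peak, and it went from 24.1 to 31.7 CPM to 12.4 to 16.3 on FPC and from 23.7 to 32.9 to 12.9 to 20.0 on CDAHFD, while Cd3e, Cd3g, Cd79a and Nkg7 had none. Apart from the stellate sum on CDAHFD, whose ranges overlap, these levels differ between control and advanced livers without overlap. Their part in the members' changes was not tested.

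Over the whole of each locus, the regulators Ppargc1a and Creb3l3 lost accessibility and the hormone gene Fgf21 gained it with advanced disease on both diets, whereas the summed signal around Angptl4, Cpt1a, Slc25a20 and Ehhadh passed the test on neither. Acadm was called lower on FPC and higher on CDAHFD. A gene's sum adds the counts of its peaks within 50 kb and is given in CPM. In advanced FPC against control 4 of 8 genes were called at an adjusted p under 0.05 (edgeR's quasi-likelihood test, Benjamini-Hochberg adjustment over all genes), where 61.2% of all genes were: 1 was higher and 3 lower, against 30.7% and 30.5% of all genes. In advanced CDAHFD it was also 4 of 8, with 58.5% of all genes called: 2 were higher and 2 lower, against 28.5% and 30%. The members' median log2 fold change was −0.06 on FPC and −0.09 on CDAHFD, against 0.01 and −0.01 over all genes. With 8 genes, the gap between these counts and the shares of all genes is too small to be read as a trait of the members. In bulk nuclei, fewer nuclei with an open site and less opening per nucleus cannot be told apart.

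A sum per kb of peak is an average over a gene's peaks, all 200 bp wide, and is lower where many of them are weak. A pair of Acadm peaks overlaps, so reads they share may count more than once. By this measure FPC controls had the highest value at Acadm (195 CPM per kb), followed by Creb3l3 (150.0), Cpt1a (116), Ppargc1a (114), Slc25a20 (104), Ehhadh (71.8), Angptl4 (64.1) and Fgf21 (30.8). In that order the libraries of Cpt1a, Ppargc1a and Slc25a20 overlapped one another, as did those of Ehhadh and Angptl4.

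**Figure D1:**
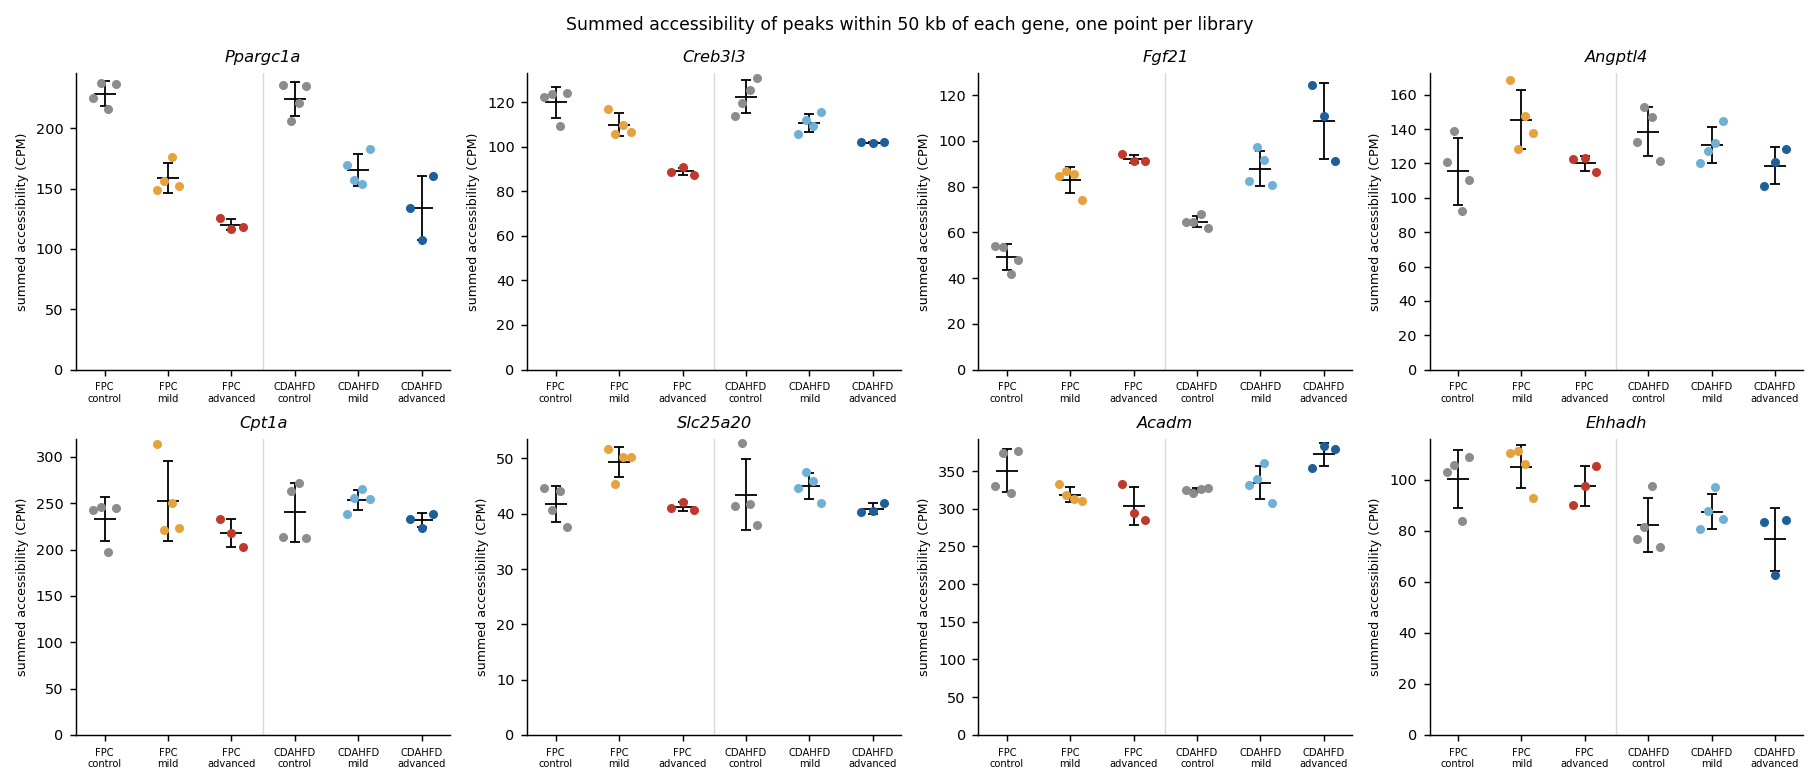
Summed accessibility of the peaks within 50 kb of each gene (y axis, CPM, from 0) by group (x axis), with 1 point per library, the mean as a horizontal mark and the SD as the error bar (n = 4, 4 and 3 per diet). Ppargc1a and Creb3l3 step down and Fgf21 steps up from control to advanced on both diets, while the diseased groups of Cpt1a and Ehhadh overlap their controls.

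Ppargc1a, the coactivator gene, showed the largest fall among the 8. Its sum was 225, 238, 216 and 237 CPM in the 4 FPC controls, 149, 156, 177 and 152 in mild and 125, 117 and 118 in advanced FPC. On CDAHFD it was 236, 206, 221 and 235 in controls, 169, 157, 154 and 183 in mild and 134, 107 and 161 in advanced livers. Every mild and advanced library lay below every control library of its diet, and mild and advanced overlapped only on CDAHFD, where 1 advanced library at 161 exceeded 2 mild ones. The log2 fold change against control was −0.93 ± 0.09 (SE; 1.90-fold lower, adjusted p = 1.38e-08) in advanced FPC and −0.74 ± 0.09 (1.67-fold lower, adjusted p = 2.28e-07) in advanced CDAHFD, by edgeR. In mild livers it was −0.53 ± 0.09 and −0.43 ± 0.08, and advanced livers lay below mild ones by −0.40 ± 0.09 on FPC (adjusted p = 0.002) and −0.31 ± 0.09 on CDAHFD (adjusted p = 0.0206, edgeR). The last call was lost in 4 of the 7 fits that left 1 library out, and within 10 kb neither step from mild to advanced was called. The change to advanced disease did not pass the test of a difference between diets (0.19, 95% interval −0.08 to 0.46, CDAHFD minus FPC).

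The loss at Ppargc1a was uneven along the locus. The largest change was at a peak 28093 bp upstream of the outer start (chr5:51595718-51595918, mm10). It had 31.5, 24.9, 24.2 and 21.8 CPM in FPC controls, 13.7, 17.2, 20.3 and 16 in mild and 4.21, 4.13 and 4.77 in advanced FPC. On CDAHFD it had 26.8, 26.6, 24.7 and 21.7 CPM in controls, 15.8, 10.6, 7.44 and 15.3 in mild and 3.63, 4.34 and 6.83 in advanced livers. The 3 stages did not overlap on either diet, and the fold change in advanced livers was −2.54 ± 0.23 and −2.36 ± 0.22 on the log2 scale. The authors' annotation calls it intergenic, while in RefSeq it lies inside the Ppargc1a gene body, which extends farther upstream. A pair of peaks in intron 2 of 12 fell as well. One lies 42284 bp downstream of the inner start (chr5:51511537-51511737). It went from 31.98, 41.9, 32.8 and 37.7 CPM in FPC controls to 13.2, 14.2 and 13.2 in advanced FPC. On CDAHFD it went from 33.5, 29.0, 32.1 and 36.8 to 13.2, 12.7 and 13.9 CPM. Its log2 fold changes were −1.40 ± 0.14 and −1.30 ± 0.14, again with no overlap. The one at 25956 bp (chr5:51527865-51528065) changed by −0.87 ± 0.14 and −0.93 ± 0.13.

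The peak over the inner Ppargc1a start (chr5:51553837-51554037) moved less. Its level was 16.7, 24.4, 17.5 and 23.02 CPM in FPC controls and 14.8, 14.5 and 14.6 in advanced FPC, a log2 fold change of −0.46 ± 0.17 (adjusted p = 0.019, edgeR). CDAHFD gave 18.9, 14.7, 19.1 and 22.1 CPM in controls and 16.7, 11.8 and 19.1 in advanced livers, which overlap (−0.22 ± 0.15, not called). The FPC call was lost without control replicate 2 or 4, without advanced replicate 2 and with cyclic loess scaling. No peak of Ppargc1a was called higher in a comparison of a diseased group with its controls, although the one at 16423 bp, also in intron 2, was in mild CDAHFD with cyclic loess scaling and without mild replicate 1. In advanced livers that peak was not called (0.13 and −0.01).

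Creb3l3, the gene of the liver-enriched factor CREBH, lost accessibility in advanced livers on both diets. Its sum was 122, 124, 110 and 124 CPM in FPC controls, 117, 106, 110 and 107 in mild and 88.8, 90.7 and 87.3 in advanced FPC. CDAHFD sums were 114, 120, 125 and 131 CPM in controls, 106, 112, 109 and 116 in mild and 102, 102 and 102 in advanced livers. Advanced libraries lay below all controls and all mild libraries of their diet, and mild libraries overlapped the controls. The log2 fold change in advanced livers was −0.43 ± 0.06 on FPC (adjusted p = 1.63e-06) and −0.26 ± 0.06 on CDAHFD (adjusted p = 0.000325), by edgeR. Scaled on peaks beyond 1 kb alone, which hold the same 4 Creb3l3 peaks, the CDAHFD value was −0.15 and no longer called. In mild livers it was −0.12 ± 0.06 on FPC, not called, and −0.14 ± 0.05 on CDAHFD (adjusted p = 0.0264, edgeR), a call lost in 4 of the 8 fits that left 1 library out and with DESeq2, cyclic loess or library size scaling.

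On each diet 2 of the 4 Creb3l3 peaks were called lower in advanced livers and none higher. Distances of the Creb3l3 peaks are counted from the outer start. Of all peaks 28% were lower and 27.6% higher on FPC, and 28.8% and 26.7% on CDAHFD. The peak in intron 1 of 11 (4474 bp downstream, chr10:81094298-81094498) had 16.5, 14.3, 9.75 and 12.1 CPM in FPC controls and 5.90, 6.84 and 7.64 in advanced FPC, and went from 14.3, 14.96, 17.1 and 12.6 to 10.3, 10.3 and 9.96 on CDAHFD. Advanced libraries were below all controls on both diets (−0.93 ± 0.17 and −0.54 ± 0.15). The peak in intron 5 (8072 bp downstream, chr10:81090700-81090900) had 23.3, 28.1, 20.8 and 29.9 CPM in FPC controls and 17.5, 13.96 and 16.4 in advanced FPC. CDAHFD values were 23.2, 22.4, 23.6 and 29.5 CPM in controls and 17.1, 18.02 and 16.2 in advanced livers, so that the groups did not overlap on either diet (−0.67 ± 0.14 and −0.53 ± 0.13). The strongest Creb3l3 peak, at 6209 bp over the printed start and named after its values were seen, averaged 48.7 CPM in FPC controls and 45.1 in advanced FPC, and 47.9 and 48.7 on CDAHFD. Neither difference was called (−0.11 ± 0.07 and 0.02 ± 0.07).

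Fgf21, which encodes a hormone the liver releases in fasting and under amino acid shortage, gained accessibility already in mild livers. Its sum was 53.9, 53.6, 41.8 and 48.1 CPM in FPC controls, 84.8, 87.0, 85.7 and 74.3 in mild and 94.3, 91.0 and 91.0 in advanced FPC. On CDAHFD it was 64.3, 64.5, 67.9 and 62.0 CPM in controls, 82.4, 97.1, 91.5 and 80.6 in mild and 124, 111 and 91.2 in advanced livers. All diseased libraries lay above all controls of their diet. The log2 fold change in advanced livers was 0.91 ± 0.10 on FPC (1.88-fold, adjusted p = 3.74e-08) and 0.75 ± 0.09 on CDAHFD (1.69-fold, adjusted p = 1.31e-07), by edgeR. In mild livers it was 0.76 ± 0.10 on FPC and 0.44 ± 0.08 on CDAHFD, and the step from mild to advanced passed the edgeR test on CDAHFD (0.31 ± 0.09, adjusted p = 0.0128) but not on FPC (0.15 ± 0.09, adjusted p = 0.214), and the CDAHFD call was lost without advanced replicate 1. The difference between diets was called at neither stage.

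The controls of the 2 arms themselves differed at Fgf21. All 4 libraries of mice on low fat diet for 20 weeks lay below all 4 of those on it for 7 weeks, by 0.41 ± 0.10 on the log2 scale (adjusted p = 0.0122, edgeR), and this was the only one of the 8 genes called there, where 6.02% of all genes were. Without FPC control replicate 3, which had the lowest sum at 41.8 CPM, the call was lost. The peak 976 bp upstream was also lower in the controls kept for 20 weeks (8.72, 10.1, 8.07 and 6.32 against 12.7, 14.4, 12.8 and 12.2 CPM, −0.66 ± 0.15), a call lost without FPC control replicate 3 or 4. Changes from control are therefore measured from different baselines in the 2 arms.

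Of the 8 Fgf21 peaks, 6 rose and none fell in advanced livers on each diet. Of all peaks 27.6% were higher and 28% lower on FPC, and 26.7% and 28.8% on CDAHFD. The largest change among the Fgf21 peaks was just past the end of the short gene, 2306 bp downstream of the start (chr7:45613084-45613284). It had 1.21, 2.12, 0.672 and 0.506 CPM in FPC controls, 2.41, 3.59, 4.65 and 2.999 in mild and 6.07, 8.83 and 6.52 in advanced FPC. On CDAHFD it had 1.13, 1.65, 1.19 and 1.02 CPM in controls, 3.88, 7.18, 4.37 and 2.62 in mild and 12.6, 12.3 and 7.68 in advanced livers. The stages did not overlap on either diet, and the peak was weak in controls, with a log2 fold change of 2.72 ± 0.39 and 3.11 ± 0.32 in advanced livers.

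The Fgf21 peak 976 bp upstream (chr7:45616366-45616566) had 8.72, 10.1, 8.07 and 6.32 CPM in FPC controls, 19.3, 21.5, 23.4 and 20.3 in mild and 27.0, 23.2 and 23.2 in advanced FPC. CDAHFD gave 12.7, 14.4, 12.8 and 12.2 CPM in controls, 19.4, 20.6, 19.4 and 16.4 in mild and 28.6, 32.4 and 21.3 in advanced livers. Diseased libraries lay above controls throughout (1.56 ± 0.15 and 1.07 ± 0.13 in advanced). The peak over the printed start region (centre 86 bp upstream, chr7:45615476-45615676) had 5.82, 6.89, 4.71 and 7.34 CPM in FPC controls, 14.9, 15.4, 12.1 and 12.7 in mild and 12.5, 12.5 and 12.7 in advanced FPC. CDAHFD values were 9.74, 10.8, 10.2 and 6.96 CPM in controls, 10.6, 12.7, 12.9 and 9.84 in mild and 15.2, 13.02 and 10.5 in advanced livers. It thus rose on FPC at both stages without overlap (1.17 ± 0.18 and 1.05 ± 0.19), while on CDAHFD the groups overlapped and the call in advanced livers (0.45 ± 0.16, adjusted p = 0.020, edgeR) was lost without control replicate 4 or advanced replicate 1. The change to mild disease differed between diets at both upstream peaks (−0.82 and −0.90, CDAHFD minus FPC), but both calls were lost without FPC control replicate 3, and that at 86 bp in 6 of the 16 fits that left 1 library out. A pair of peaks 17679 and 18291 bp downstream rose as well, by 1.27 ± 0.21 and 1.11 ± 0.21 on FPC and 1.55 ± 0.19 and 1.13 ± 0.19 on CDAHFD. They lie inside the body of another gene, Gm31479, but count towards the Fgf21 sum.

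**Figure D2:**
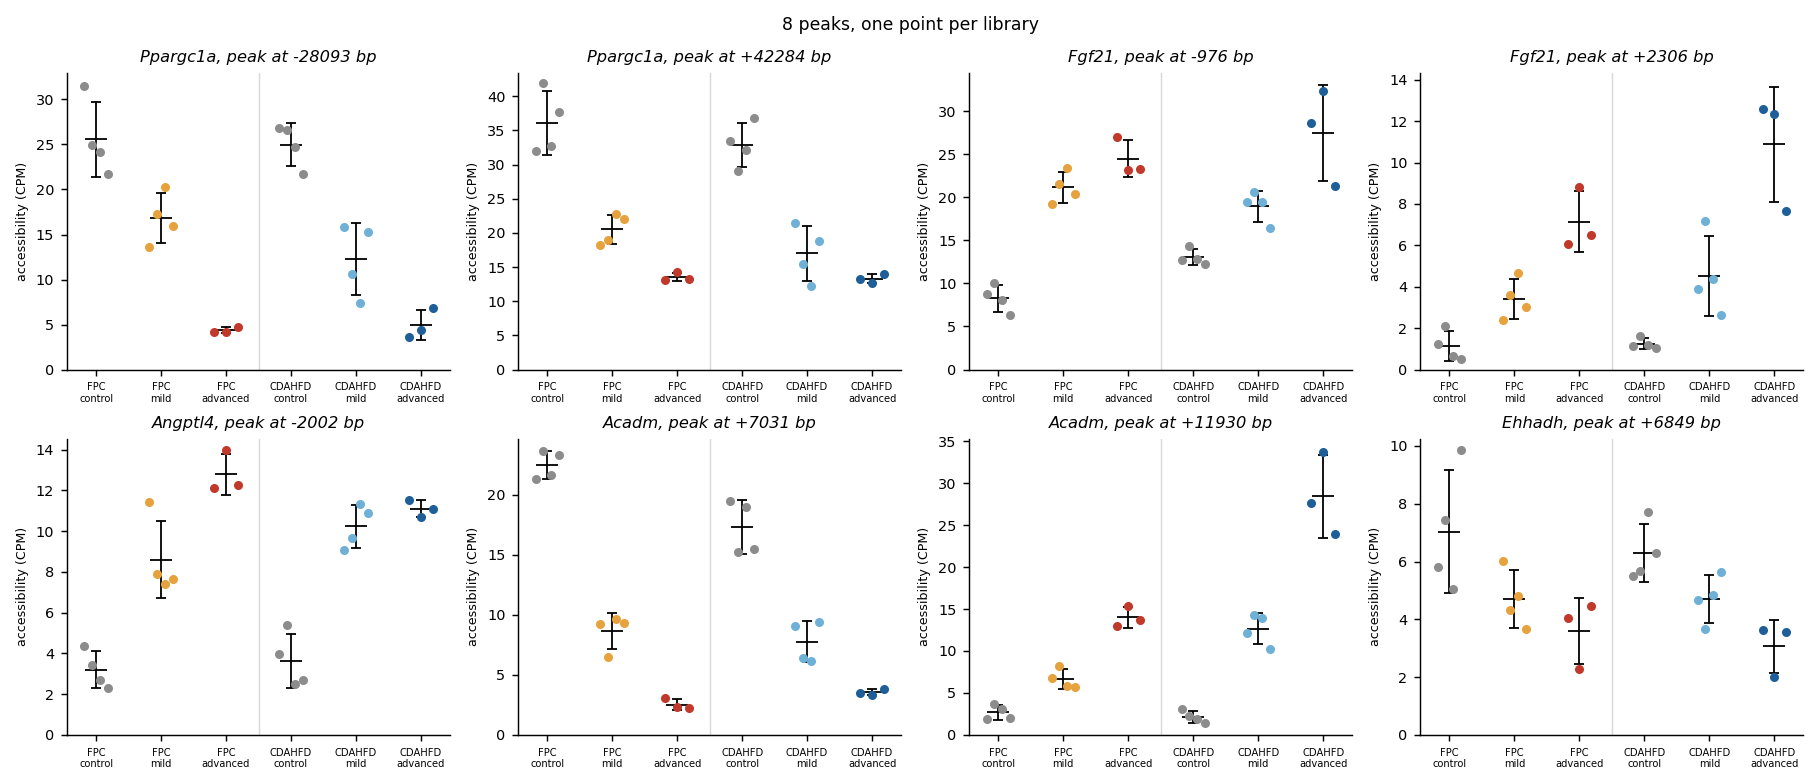
Accessibility of 8 single peaks (y axis, CPM, from 0) by group (x axis), with 1 point per library, the mean as a horizontal mark and the SD as the error bar. Only peaks called in advanced livers on both diets and outside the bodies of other genes were considered. Shown are the 8 with the largest change on the diet where it was smaller, up to 2 per gene. The Ppargc1a peaks, the Ehhadh peak and the Acadm peak at +7031 bp are lower and the Fgf21, Angptl4 and Acadm +11930 bp peaks higher in advanced livers, with no overlap between advanced and control libraries in any panel.

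Angptl4, whose product inhibits lipoprotein lipase, changed in opposite directions along its locus, and its sum moved little. The sum was 121, 139, 92.3 and 110 CPM in FPC controls, 169, 128, 148 and 138 in mild and 122, 123 and 115 in advanced FPC. CDAHFD sums were 133, 153, 147 and 122 CPM in controls, 120, 127, 132 and 145 in mild and 107, 121 and 128 in advanced livers. Groups overlapped except between mild and advanced FPC. Mild FPC was called higher than control (0.35 ± 0.10, adjusted p = 0.00924) and advanced FPC lower than mild (−0.27 ± 0.10, adjusted p = 0.049), while advanced against control was 0.07 ± 0.11 on FPC and −0.23 ± 0.10 on CDAHFD (adjusted p = 0.0613, edgeR). The call of advanced against mild FPC was lost in 6 of the 7 fits that left 1 library out, with cyclic loess and library size scaling and with the scaling of all peaks.

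The upstream Angptl4 peaks rose. The one 2002 bp upstream (chr17:33783477-33783677) had 4.36, 3.45, 2.69 and 2.28 CPM in FPC controls, 11.45, 7.90, 7.40 and 7.67 in mild and 12.1, 13.96 and 12.2 in advanced FPC. On CDAHFD it had 3.95, 5.38, 2.495 and 2.72 CPM in controls, 9.06, 9.66, 11.3 and 10.9 in mild and 11.5, 10.7 and 11.1 in advanced livers. All diseased libraries lay above all controls (2.01 ± 0.23 and 1.62 ± 0.21 in advanced, 1.43 ± 0.23 and 1.49 ± 0.20 in mild). The peak 3571 bp upstream rose by 0.74 ± 0.22 and 0.85 ± 0.21 in advanced livers. At the other end, the peak 7949 bp downstream (chr17:33773526-33773726) had 7.75, 10.9, 5.21 and 13.7 CPM in FPC controls and 4.72, 5.70 and 4.30 in advanced FPC, which overlap (−0.89 ± 0.26). CDAHFD gave 10.4, 12.3, 13.4 and 8.83 CPM in controls and 3.85, 4.005 and 4.84 in advanced livers, which do not (−1.42 ± 0.25). The peak over the start (chr17:33781499-33781699) was called in mild FPC alone among the 4 comparisons with controls, going from 9.93, 12.7, 6.05 and 6.07 to 23.5, 15.1, 14.5 and 15.8 CPM (1.01 ± 0.23, no overlap). In advanced FPC it was at 14.2, 11.1 and 9.39 CPM (0.44 ± 0.25, not called), and its CDAHFD values were −0.07 ± 0.22 in advanced and 0.12 ± 0.20 in mild livers. The FPC value in advanced livers passed the test without control replicate 2.

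Cpt1a, which controls entry into the carnitine shuttle, had sums of 243, 246, 197 and 245 CPM in FPC controls, 314, 221, 250 and 223 in mild and 233, 218 and 203 in advanced FPC. On CDAHFD they were 214, 263, 272 and 212 CPM in controls, 238, 256, 265 and 255 in mild and 234, 223 and 238 in advanced livers. Diseased groups overlapped their controls throughout, and the advanced values were −0.09 ± 0.10 (95% interval −0.31 to 0.12) and −0.06 ± 0.10 (−0.27 to 0.15), with a sign that depends on the scaling. The start peak did rise, from 30.5, 28.1, 24.2 and 29.9 CPM in FPC controls to 44.6, 37.3, 35.8 and 37.7 in mild and 38.4, 30.9 and 33.6 in advanced FPC (0.47 ± 0.10 and 0.29 ± 0.11). CDAHFD values were 24.1, 31.4, 34.5 and 28.7 CPM in controls, 32.4, 33.2, 36.9 and 34.2 in mild and 36.1, 34.4 and 35.4 in advanced livers (0.19 ± 0.09, not called, and 0.25 ± 0.10). Diseased FPC libraries were above all controls, CDAHFD groups overlapped, and the advanced calls were lost without FPC control replicate 3 or advanced replicate 1, and without CDAHFD control replicate 1 or 4 or advanced replicate 1 or 3.

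Inside intron 1 of 18 of Cpt1a, the peak 10927 bp downstream (chr19:3334128-3334328) had 5.82, 5.30, 5.21 and 8.35 CPM in FPC controls, 11.4, 7.36, 8.61 and 8.50 in mild and 10.8, 10.5 and 12.7 in advanced FPC. On CDAHFD it had 6.64, 7.18, 8.32 and 6.28 CPM in controls, 9.84, 10.1, 13.3 and 12.3 in mild and 14.2, 13.02 and 12.4 in advanced livers. Advanced libraries were above all controls on both diets (0.89 ± 0.19 and 0.89 ± 0.17). The peak 3692 bp upstream rose in advanced CDAHFD, from 6.92, 5.68, 8.79 and 5.26 to 13.6, 13.2 and 13.8 CPM (1.00 ± 0.23, no overlap). On FPC it went from 3.88, 6.10, 4.03 and 11.1 to 10.4, 8.55 and 8.91 CPM, which overlap (0.60 ± 0.27, adjusted p = 0.058, edgeR). The peak in intron 3 at 30554 bp had 17.2, 12.5, 10.4 and 11.1 CPM in FPC controls and 5.56, 8.69 and 5.41 in advanced FPC (−0.94 ± 0.40, adjusted p = 0.048, edgeR). This call was lost with DESeq2, with cyclic loess scaling and in 5 of the 7 fits that left out 1 FPC library, and CDAHFD gave −0.68 ± 0.40, not called.

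Slc25a20, the carnitine-acylcarnitine carrier, has only 2 peaks here. Its sum was 44.6, 40.6, 44.2 and 37.6 CPM in FPC controls, 51.6, 45.3, 50.3 and 50.2 in mild and 41.0, 42.2 and 40.6 in advanced FPC. On CDAHFD it was 41.3, 52.8, 41.7 and 37.9 CPM in controls, 44.6, 47.5, 46.0 and 41.9 in mild and 40.3, 40.5 and 42.0 in advanced livers. Mild FPC lay above control and advanced FPC without overlap (0.24 ± 0.09, adjusted p = 0.0324, and −0.26 ± 0.09 for advanced against mild, adjusted p = 0.0278, edgeR), and no other comparison within a diet was called. The former call was lost in 5 of the 8 fits that left 1 library out and with DESeq2, and the latter in 6 of 7 and with the scaling of all peaks. The start peak, with 29.3, 27.0, 33.6 and 26.8 CPM in FPC controls and 30.0, 32.8 and 31.2 in advanced FPC, gave 0.09 ± 0.10 there and −0.01 ± 0.09 on CDAHFD.

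Acadm, the medium-chain acyl-CoA dehydrogenase, held, inside the gene, the largest loss of all 59 peaks in advanced FPC and the largest gain in advanced CDAHFD. The peak in intron 6 of 11 (7031 bp downstream, chr3:153937512-153937712) had 21.3, 23.6, 21.7 and 23.3 CPM in FPC controls, 9.24, 6.46, 9.64 and 9.33 in mild and 3.04, 2.28 and 2.23 in advanced FPC. CDAHFD gave 19.5, 15.3, 19.0 and 15.4 CPM in controls, 9.06, 6.40, 6.15 and 9.42 in mild and 3.53, 3.34 and 3.84 in advanced livers. The 3 stages were apart on both diets, with log2 fold changes of −1.37 ± 0.15 in mild and −3.16 ± 0.20 in advanced FPC and of −1.14 ± 0.15 and −2.27 ± 0.18 on CDAHFD. Its adjusted p in advanced livers was 3.2e-12 on FPC (edgeR).

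The gain was in intron 8 of Acadm, 11930 bp downstream (chr3:153932613-153932813). That peak had 1.94, 3.71, 3.03 and 2.02 CPM in FPC controls, 6.83, 8.26, 5.85 and 5.67 in mild and 12.98, 15.4 and 13.7 in advanced FPC. CDAHFD values were 3.11, 2.24, 1.90 and 1.36 CPM in controls, 12.2, 14.2, 13.9 and 10.3 in mild and 27.7, 33.7 and 23.9 in advanced livers. The stages were again apart on both diets, with log2 fold changes of 1.30 ± 0.24 and 2.38 ± 0.23 on FPC and 2.52 ± 0.20 and 3.70 ± 0.20 on CDAHFD. A peak at 12067 bp overlaps it, so that reads they share count towards both and the gene's sum may hold them more than once, and it rose by 1.40 ± 0.21 in advanced FPC and 2.34 ± 0.19 in advanced CDAHFD. At 11930 bp the change on CDAHFD exceeded that on FPC by 1.32 on the log2 scale in advanced livers and by 1.23 in mild livers. It was the only 1 of 59 peaks called for a difference between diets in advanced livers, where 1.6% of all peaks were, and 1 of 4 in mild livers, where 3.47% were. Neither call was firm: that in advanced livers was lost in 9 of the 14 fits that left 1 library out, that in mild livers in 9 of 16, and both in the fit with only the groups compared.

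The start of Acadm moved less. The start peak (chr3:153944563-153944763), the strongest of the 59, had 114, 112, 110 and 116 CPM in FPC controls and 120, 114 and 105 in advanced FPC. On CDAHFD it had 97.2, 101, 101 and 107 CPM in controls and 104, 125 and 124 in advanced livers. FPC groups overlapped (−0.00 ± 0.06), and CDAHFD groups did as well although the difference was called (0.21 ± 0.06, adjusted p = 0.0037, edgeR), a call lost with cyclic loess scaling. Cyclic loess scaling instead called it lower on FPC. An upstream peak at 2845 bp, named after its values were seen, rose in mild livers on both diets (0.75 ± 0.20 and 0.59 ± 0.19, the latter lost without CDAHFD control replicate 3 or 4) and was not called in advanced ones (−0.02 ± 0.23 and 0.32 ± 0.21), except on CDAHFD without control replicate 2 (0.62).

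The Acadm sum, which adds these opposed peaks, was 330, 374, 321 and 377 CPM in FPC controls, 333, 319, 313 and 310 in mild and 333, 294 and 284 in advanced FPC. CDAHFD sums were 325, 321, 326 and 328 CPM in controls, 331, 340, 360 and 308 in mild and 354, 383 and 379 in advanced livers. Advanced FPC overlapped the controls (−0.21 ± 0.06, adjusted p = 0.00814) and advanced CDAHFD lay above all of them (0.19 ± 0.06, adjusted p = 0.0105, edgeR). The difference between diets, 0.40 ± 0.09 (adjusted p = 0.0122, edgeR), was the only one called among the 8 genes, where 4.8% of all genes were. In mild livers none of the 8 was called by edgeR for such a difference, where 5.28% of all genes were, although 3 had an unadjusted p under 0.05. The FPC call was lost with cyclic loess scaling, with library size alone, with the scaling of all peaks, with peaks beyond 1 kb only, and without control replicate 2 or 4 or advanced replicate 3. With peaks beyond 10 kb left out, among them the pair in intron 8, the CDAHFD value was close to 0 and negative.

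Ehhadh, the peroxisomal bifunctional enzyme, had sums of 103, 106, 83.8 and 109 CPM in FPC controls, 110, 111, 106 and 93.0 in mild and 90.0, 97.7 and 106 in advanced FPC. On CDAHFD they were 76.7, 81.4, 97.7 and 73.6 CPM in controls, 80.7, 87.9, 97.1 and 84.5 in mild and 83.5, 62.5 and 84.1 in advanced livers. All groups overlapped within each diet, and none of the 6 comparisons was called. The start peak had 33.9, 39.2, 28.2 and 36.7 CPM in FPC controls and 34.9, 33.6 and 37.1 in advanced FPC, and gave 0.04 ± 0.11 on each diet. Single peaks in intron 1 of 6 did change. The one 176 bp downstream rose on both diets (0.61 ± 0.18 and 0.54 ± 0.19), and the one at 6849 bp fell on both (−0.95 ± 0.27 and −1.01 ± 0.26). At 5715 bp the peak had 2.91, 2.65, 2.52 and 5.57 CPM in FPC controls, 9.64, 10.1, 8.26 and 6.17 in mild and 7.08, 7.55 and 8.27 in advanced FPC, with diseased libraries above all controls (1.34 ± 0.30 and 1.19 ± 0.32). CDAHFD gave 3.67, 5.68, 6.18 and 1.36 CPM in controls and 5.98, 4.34 and 5.12 in advanced livers, which overlap (0.26 ± 0.29). The controls at 176 bp were higher in the FPC arm (12.6, 7.69, 8.40 and 11.4 CPM) than in the CDAHFD arm (5.93, 5.38, 6.54 and 5.43 CPM; 0.77 ± 0.18, adjusted p = 0.0202, edgeR), a call lost in 4 of the 8 fits that left 1 library out.

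**Figure D3:**
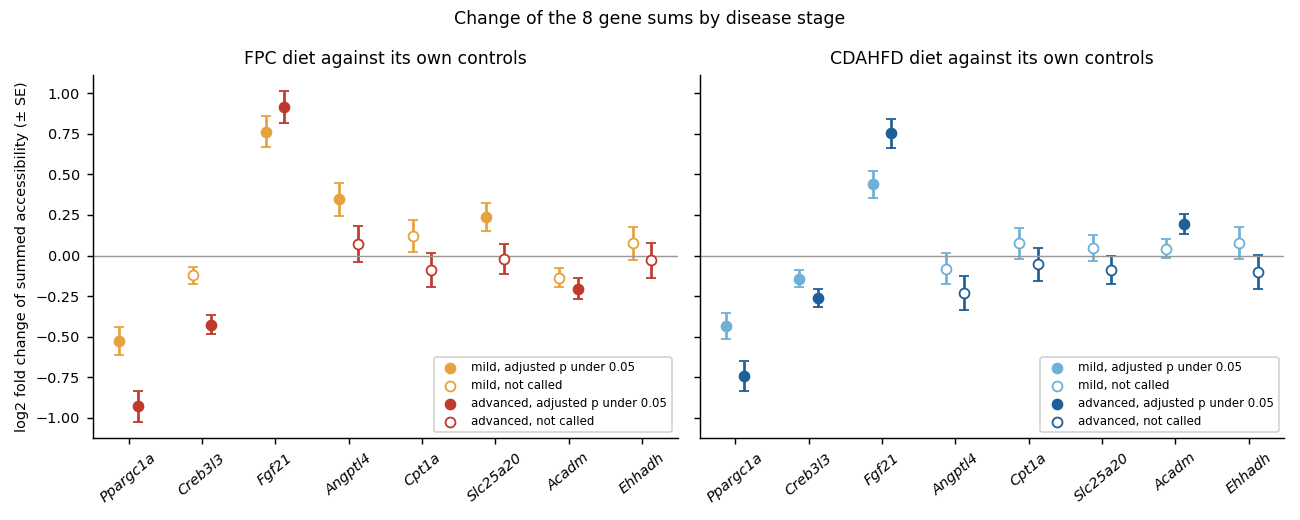
Log2 fold change of the summed accessibility of each gene (y axis, ± SE) in mild and advanced livers against the controls of the same diet, FPC on the left and CDAHFD on the right, with filled points for an adjusted p under 0.05. Ppargc1a lies lowest and Fgf21 highest on both diets, and Acadm lies below 0 in advanced FPC and above it in advanced CDAHFD.

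By stage, mild FPC called 4 of 8 genes (Ppargc1a lower, Fgf21, Angptl4 and Slc25a20 higher), where 40.3% of all genes were called, 19.7% higher and 20.6% lower. Mild CDAHFD called 3 of 8 (Ppargc1a and Creb3l3 lower, Fgf21 higher), against 45.4%, 22.1% higher and 23.3% lower. From mild to advanced, FPC called 4 of 8, all lower (Ppargc1a, Creb3l3, Angptl4 and Slc25a20), against 31.5%, 15.4% higher and 16.1% lower. On CDAHFD 2 of 8 were called (Ppargc1a lower, Fgf21 higher), against 17.4%, 9.33% higher and 8.05% lower. The FPC count of 4 was 2 in 6 of the 7 fits that left out 1 library and with the scaling of all peaks, and the CDAHFD count of 2 was 0 without advanced replicate 1. With the TMM factors and totals of all peaks in place of those of the gene sums, the median of all genes in advanced FPC shifted by 0.10, and 62.5% of called genes were higher in place of 50.2%. Ppargc1a, Creb3l3 and Fgf21 kept their direction in advanced livers on both diets under all scalings tried.

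At the level of single peaks, 28 of 59 were called in advanced FPC, 14 higher and 14 lower, where 55.6% of all peaks were called, 27.6% higher and 28% lower. In advanced CDAHFD 28 were called, 15 higher and 13 lower, against 55.5% of all peaks, 26.7% higher and 28.8% lower. The 2 diets have separate controls, and 13 peaks were higher on both, 9 lower on both and none opposite, while 25 were called on neither. The shared gains were 13 of 14 gains on FPC and 13 of 15 on CDAHFD, and the shared losses 9 of 14 and 9 of 13. Of all peaks, 20.7% were higher on both diets and 21.5% lower on both, which makes 75.2% of the gains on FPC and 77.5% of those on CDAHFD, and 76.8% and 74.6% of the losses, while 31.4% were called on neither. In mild FPC 27 were called, 18 higher and 9 lower, against 28.8% of all peaks, 15.1% higher and 13.6% lower. In mild CDAHFD 21 were called, 12 higher and 9 lower, against 40.7%, 20.7% higher and 20% lower. From mild to advanced FPC 14 were called, 5 higher and 9 lower, against 29.3%, 14.7% higher and 14.6% lower. On CDAHFD it was 8, 5 higher and 3 lower, against 16.5%, 9.28% higher and 7.26% lower. The FPC count of 14 dropped to 5 without advanced replicate 2 and to 9 without replicate 3. The controls of the 2 arms differed at 2 peaks, against 2.71% of all peaks.

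Within 1 kb of the start used in the annotation, 5 of 13 member peaks were called in advanced FPC and 6 in advanced CDAHFD. Farther out it was 23 and 22 of 46, among them the peak over the inner Creb3l3 start. Among all peaks the corresponding shares were 51.0% and 45.2% near a start and 56.2% and 58.3% farther out. The largest change near a start was 1.56 (log2, Fgf21 at 976 bp upstream), and farther out it was 3.70 (Acadm in intron 8).

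**Figure D4:**
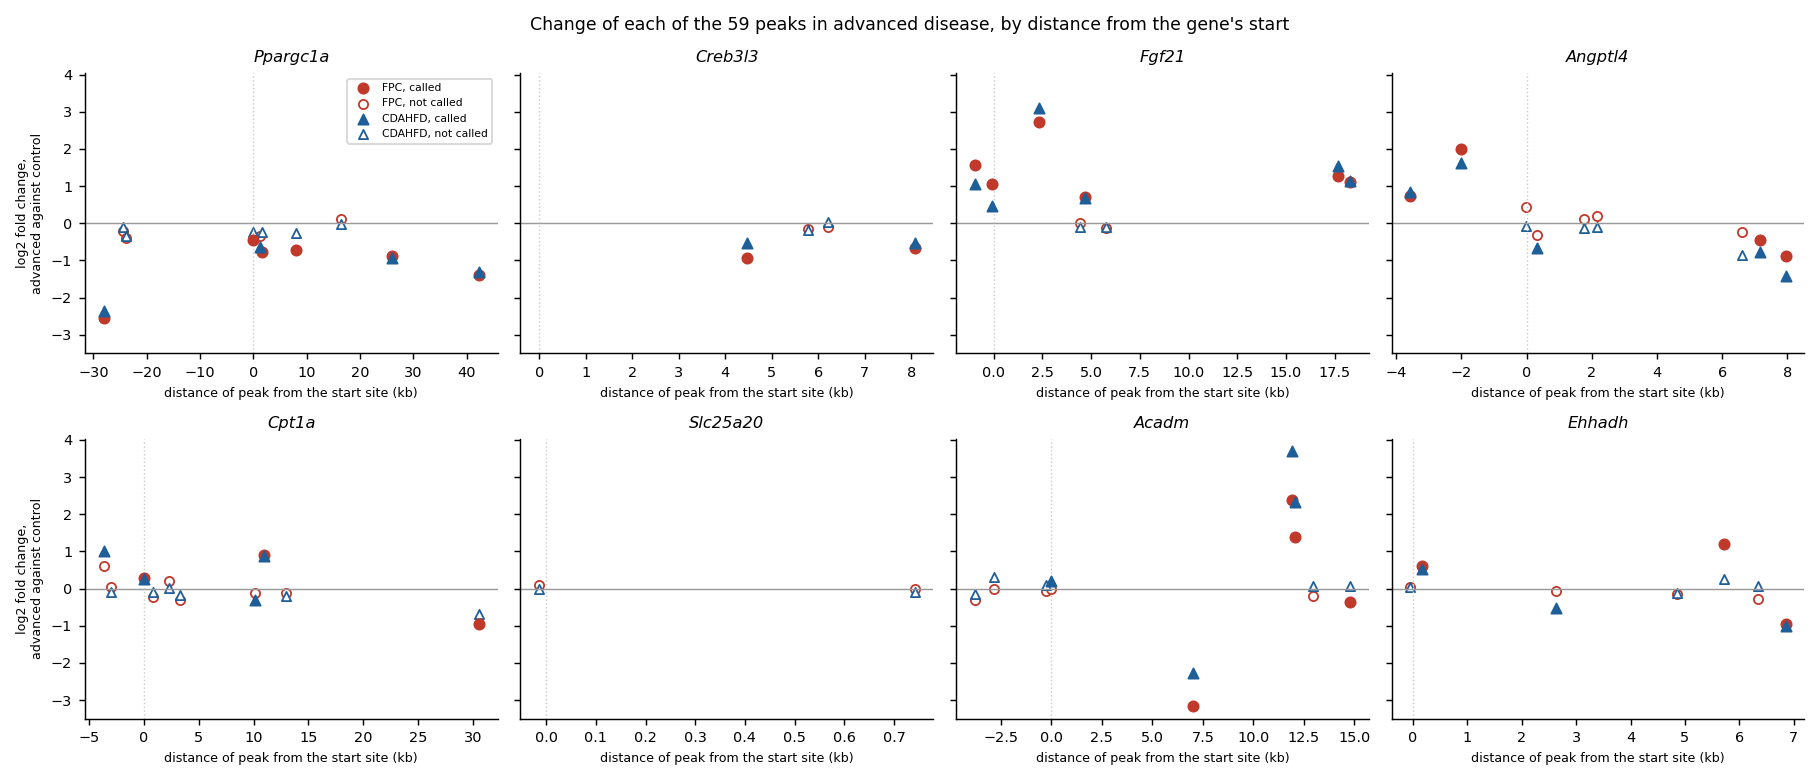
Log2 fold change in advanced livers against control (y axis) for each of the 59 peaks by its distance from the gene's start (x axis, kb, with a separate scale per gene), with circles for FPC, triangles for CDAHFD and filled symbols for an adjusted p under 0.05. Called peaks of Ppargc1a lie below 0 and those of Fgf21 above it, whereas Acadm, Angptl4, Cpt1a and Ehhadh hold called peaks on both sides. The Ppargc1a peaks 28093, 24381 and 23982 bp upstream are placed from an outer start, and its other peaks from an inner one. The Creb3l3 peaks are placed from its outer start.

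Other genes of the pathway, from lists of 74 genes of which 73 had a peak, leaned to lower accessibility in advanced livers, with 8 called higher and 29 lower on FPC and 8 and 26 on CDAHFD. Of all genes 30.7% were higher and 30.5% lower on FPC, and 28.5% and 30% on CDAHFD. In mild livers the split was 19 and 11 on FPC and 11 and 12 on CDAHFD, beside the shares of all genes given above for mild livers. Their median was −0.14 in advanced FPC and −0.12 in advanced CDAHFD, beside 0.01 and −0.01 over all genes, and it stayed below 0 under each of the 4 other scalings, at −0.04 to −0.14 on FPC and −0.06 to −0.11 on CDAHFD. With the scaling of all peaks the split in advanced livers was 18 and 23 on FPC and 13 and 16 on CDAHFD. The lists were chosen with earlier results of these data known, and nothing is called particular to them.

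The regulators of the fasting program that changed in advanced livers lost accessibility. Of 16 genes for PPARalpha, coactivators and fasting transcription factors other than Ppargc1a and Creb3l3, none was called higher and 10 lower in advanced FPC, and none and 9 in advanced CDAHFD (medians −0.26 and −0.18), beside the shares of all genes just given. With cyclic loess scaling the lower calls were 6 on each diet, and with the scaling of all peaks 1 gene was called higher and 6 lower on CDAHFD. Foxo3, a forkhead factor, changed by −0.50 ± 0.06 on FPC and −0.31 ± 0.06 on CDAHFD. Creb1, the cyclic AMP responsive factor, changed by −0.29 ± 0.07 and −0.28 ± 0.07, and Ppargc1b, the paralogue of Ppargc1a, by −0.37 ± 0.08 and −0.32 ± 0.07. Ppara itself, named after its values were seen, was called lower in advanced FPC alone (−0.32 ± 0.09), with −0.14 ± 0.09 on CDAHFD and 0.09 ± 0.08 and 0.13 ± 0.08 in mild livers.

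Among 16 mitochondrial beta-oxidation genes other than Acadm, 2 were called higher and 7 lower in advanced FPC and 2 and 5 in advanced CDAHFD. Of all genes 30.7% were higher and 30.5% lower on FPC, and 28.5% and 30% on CDAHFD. Acsl1, which activates long-chain fatty acids, fell by 0.52 ± 0.06 and 0.36 ± 0.06 on the log2 scale, and Etfa, an electron carrier subunit, fell by 0.51 ± 0.06 and 0.28 ± 0.06. Acot2, a mitochondrial thioesterase, rose by 1.00 ± 0.18 and 0.93 ± 0.16. In the carnitine shuttle, 1 of 7 other genes was called higher and 1 lower in advanced FPC, and none and 3 in advanced CDAHFD, beside the same shares of all genes. Crot, the peroxisomal carnitine octanoyltransferase, was lower on FPC (−0.40 ± 0.08) and not called on CDAHFD (−0.08 ± 0.08). Crat, the acetyltransferase, was lower on CDAHFD (−0.20 ± 0.06) and not called on FPC (−0.14 ± 0.07). Cpt1b, the muscle form of Cpt1a, had little signal (9.25 CPM in FPC controls) and rose most in mild livers, by 1.60 ± 0.28 on FPC and 0.90 ± 0.25 on CDAHFD.

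Peroxisomal genes that changed in mild livers gained accessibility. Of 9 other than Ehhadh, 7 were called higher and none lower in mild FPC, and 4 and none in mild CDAHFD. Of all genes 19.7% were higher and 20.6% lower in mild FPC, and 22.1% and 23.3% in mild CDAHFD. In advanced livers 1 of the 9 was higher and 1 lower on FPC, and 3 and none on CDAHFD. The shares of all genes there were 30.7% and 30.5% on FPC, and 28.5% and 30% on CDAHFD. From mild to advanced FPC, 5 of the 9 were called lower, where 16.1% of all genes were. Acot8, a peroxisomal thioesterase, stayed higher at both stages (0.47 ± 0.10 and 0.43 ± 0.10 on FPC, 0.46 ± 0.09 and 0.45 ± 0.10 on CDAHFD). Acaa1b, a peroxisomal thiolase, rose by 0.61 ± 0.08 in mild FPC and had 0.16 ± 0.09 in advanced FPC, not called. It has a close copy in Acaa1a, so reads may be split between them. Abcd3, a peroxisomal membrane transporter, was lower in advanced FPC alone (−0.38 ± 0.08).

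Of 5 omega-oxidation genes with a peak, only Cyp4a12a was called in advanced livers (−1.06 ± 0.27 and −1.05 ± 0.27). Of all genes 61.2% were called there on FPC and 58.5% on CDAHFD. Cyp4a12a had little signal, with means of 10.35 CPM in FPC controls and 4.889 in advanced FPC, and 8.505 and 4.107 on CDAHFD. Cyp4a31 and Cyp4a32 were not called in advanced livers (−0.23 ± 0.18 and −0.45 ± 0.21 on FPC, 0.02 ± 0.16 and −0.40 ± 0.19 on CDAHFD). In mild livers none of the 5 was called on FPC, and 2 were called higher and none lower on CDAHFD. The list's medians there were 0.215 on FPC and 0.184 on CDAHFD. Of all genes 40.3% were called in mild FPC and 45.4% in mild CDAHFD. These Cyp4a genes are near-identical copies whose reads may be shared.

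Among 11 secreted fasting factors and PPARalpha targets other than Fgf21 and Angptl4, 2 were called higher and 4 lower on each diet in advanced livers. Of all genes 30.7% were higher and 30.5% lower on FPC, and 28.5% and 30% on CDAHFD. Apoa4, an apolipoprotein and CREBH target, rose by 0.62 ± 0.12 and 0.58 ± 0.11. Fabp1, the liver fatty acid binding protein, changed by −0.89 ± 0.17 and −0.73 ± 0.16, and Mgll, the monoglyceride lipase, by −0.66 ± 0.07 and −0.62 ± 0.07. The list's median, −0.10 on FPC and −0.06 on CDAHFD, turned to 0.02 on FPC with cyclic loess scaling. Of the 5 FGF21 receptor genes, the coreceptor gene Klb fell by 0.55 ± 0.11 in advanced FPC and 0.55 ± 0.10 in advanced CDAHFD, on the log2 scale. In mild livers it changed by −0.35 ± 0.10 and −0.45 ± 0.10. Fgfr2 changed by −0.34 ± 0.09 and −0.32 ± 0.08, and Fgfr3 by 0.35 ± 0.06 on FPC with 0.09 ± 0.06 on CDAHFD, not called.

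**Figure D5:**
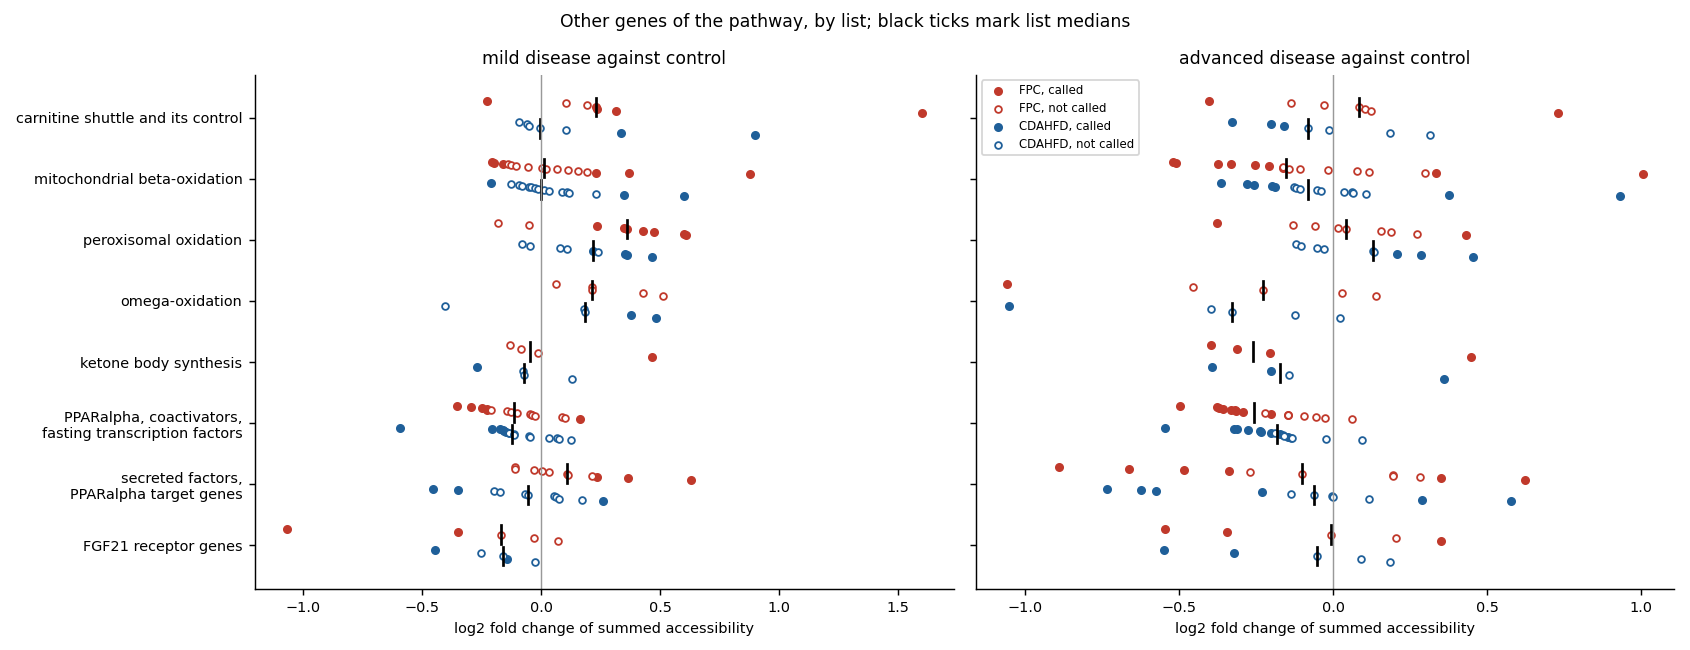
Log2 fold change of summed accessibility (x axis) of each of the 73 other pathway genes by list (y axis), in mild (left) and advanced (right) livers against control, with FPC in red, CDAHFD in blue, filled points for an adjusted p under 0.05 and a black tick at each list's median. Peroxisomal genes lie mostly above 0 in mild livers (medians 0.36 and 0.22), and the regulators lie mostly below 0 in advanced livers (medians −0.26 and −0.18).

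Genes whose sums followed those of the members most closely were sought by Pearson correlation of log2 CPM over the 22 libraries, among 7843 genes with at least the median count. As a description, the libraries being shared by all genes and spread along the same stages, Ppargc1a was most like Mir682 (0.97) and Fam13a (0.97), Creb3l3 like Stard5 (0.94) and Mir6400 (0.93), and Fgf21 like Nudt3 (0.94) and Dmrt1i (0.93). The closest genes to Angptl4 were 3110002H16Rik (0.81) and Slc22a5 (0.79), and those to Cpt1a were Abcc2 (0.78) and Zpr1 (0.76). For Slc25a20 they were 5031439G07Rik (0.78) and Ifrd2 (0.77), for Acadm Dnm2 (0.73) and Fgd6 (0.72), and for Ehhadh Pomgnt2 (0.75) and Stk38l (0.74).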

How the data were processed

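ATAC-seq of hepatocyte nuclei was analysed in 22 libraries, each from a different mouse, in 6 groups taken from the labels. The authors deposited a table of un-normalized, estimated counts per peak of 200 bp with the nearest gene and its distance. The values come in steps of 0.5, which no label explains. The submitters' processing notes name BWA 0.7.5a-r405, SAMtools, HOMER, DESeq2 and mm10; the versions of the others were not given. Every peak has a value in every library.

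These estimated counts were rounded and summed per gene over peaks within 50 kb. Peaks and gene sums were each tested in R 4.3.3 with edgeR 4.0.16 (limma 3.58.1; TMM factors, quasi-likelihood test, 6 groups in 1 fit, no feature removed), with Benjamini-Hochberg adjustment over all 68827 peaks or 15686 genes and a call at an adjusted p under 0.05. CPM are counts per 1000000 after TMM. Errors of log2 fold changes are SE. Totals of 3.79 to 9.33 (in units of 1000000 counts) leave weak peaks least precise. The p-values measure the spread between mice. The procedure was also run on simulated data. Far fewer features changed there than were called here, so that run does not test the scaling.

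Members and lists were chosen with earlier results of these data known. Of each member's peaks the text names the one nearest the start and up to 3 called in advanced livers with the largest change, of each pathway list up to 3 genes with the smallest p over both diets, and for each member the 2 genes most correlated with it; names outside this rule are marked. Some genes of the lists are not reported here. Motifs, planned for the peaks, were searched in RefSeq promoter windows because no genome sequence was used. Alternatives were DESeq2 1.42.0, cyclic loess or library size scaling, counts cut instead of rounded, a minimum of 50 counts in 3 libraries, only the groups compared, other peak windows, leaving out each library and, chosen after seeing the data, the scaling of all peaks.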

Additional observations from a re-analysis of the deposited data

Results flagged for a closer look

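In 12 of the 140 sets of 4 libraries tested, 1 library stood apart from the other 3 by more than Dixon's 95% limit allows, where chance gives about 1 in 20. FPC control replicate 3 was low for the summed signal of Cpt1a (197.2 CPM, the others 242.8 to 246.1) and of Creb3l3 (109.5, the others 122.4 to 124.3). FPC mild replicate 1 was high at the Cpt1a peak 30554 bp downstream (16.47 CPM, the others 4.647 to 5.332), at the Angptl4 peak 2002 bp upstream (11.45, the others 7.401 to 7.898) and at the Angptl4 start (23.5, the others 14.46 to 15.83). FPC mild replicate 2 was low at the Acadm peak in intron 6 (6.462 CPM, the others 9.24 to 9.638), and FPC mild replicate 4 for the sum of Fgf21 (74.34, the others 84.83 to 86.98). FPC control replicate 4 was high at the Ehhadh peak 5715 bp downstream (5.565 CPM, the others 2.521 to 2.907). Of the CDAHFD controls, replicate 2 was high at the Angptl4 peak 3571 bp upstream (6.581 CPM, the others 4.584 to 4.802) and at the Slc25a20 start (37.69, the others 28.01 to 28.63). Replicate 4 was high at the Creb3l3 peak 8072 bp downstream (29.54 CPM, the others 22.44 to 23.64), and replicate 1 at the Fgf21 peak 17679 bp downstream (5.084, the others 3.889 to 4.074).

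The change from control differed between diets by edgeR's test of that difference (CDAHFD minus FPC, log2 scale) for the Acadm sum in advanced livers (0.4003), and at the Acadm peak 11930 bp downstream in advanced (1.3205) and mild livers (1.2287). In mild livers it also differed at the Fgf21 peaks 976 bp (−0.8178) and 86 bp upstream (−0.9019) and at the Angptl4 peak 2146 bp downstream (−0.4936). Without FPC control replicate 3 none of the 4 peaks was called for mild livers.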

How the results depend on the processing

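Counts of called members kept within 1.5 times their value in 97 of 108 gene counts and 60 of 63 peak counts under the alternatives that kept all libraries, and in 65 of 82 and 63 of 82 when 1 library was left out. With peaks within 1 kb only, called genes went from 4 to 2 in mild FPC and in advanced CDAHFD, from 3 to 1 in mild CDAHFD, from 2 to 1 for advanced against mild CDAHFD, from 0 to 1 for the diet difference in mild livers and from 1 to 2 between controls. With a 10 kb window the advanced against mild CDAHFD count was 1 and the diet difference in mild livers 1, and with all peaks of the nearest gene the former was 1. Beyond 1 kb the controls gave 0, and the scaling of all peaks gave 2 in place of 4 for advanced against mild FPC. With only the groups compared, peaks called for the diet difference in advanced livers went from 1 to 0 and between controls from 2 to 0, and DESeq2 gave 4 between controls. Smaller fits hold fewer samples; the cause of the other shifts was not tested.

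Leaving out 1 library, called genes ranged from 2 to 4 for advanced against mild FPC, from 0 to 3 for advanced against mild CDAHFD (0 without advanced replicate 1, and 1 without advanced replicate 2 or mild replicate 1 or 4), from 0 to 1 for the diet difference in mild livers and from 0 to 2 between controls (0 without FPC control replicate 3). Called peaks ranged from 5 to 14 for advanced against mild FPC, from 0 to 1 and from 0 to 4 for the diet difference in advanced and mild livers (0 in mild without FPC control replicate 3) and from 1 to 3 between controls.

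Values close to 0 changed sign; of 51 such values 1 was called in either fit, the Acadm sum on CDAHFD, which went from 0.1942 to −0.0150 with a 10 kb window. In advanced FPC the Angptl4 sum was −0.1869 within 1 kb. The Cpt1a sum was 0.0767 with cyclic loess, 0.0699 beyond 1 kb and 0.0055 with the scaling of all peaks. The Slc25a20 sum was 0.0417 with library size alone, 0.0252 with all peaks of the nearest gene and 0.0744 with the scaling of all peaks. The Ehhadh sum was 0.0363 with cyclic loess, 0.0357 with library size, 0.0181 with all peaks of the nearest gene, 0.0042 within 1 kb, 0.0161 beyond it and 0.0681 with the scaling of all peaks. The Acadm start peak was 0.0142 with DESeq2, 0.0030 with library size and 0.0110 with only the groups compared. In advanced CDAHFD the Cpt1a sum was 0.0273 with cyclic loess, 0.0060 within 10 kb, 0.0073 within 1 kb, 0.0176 beyond it and 0.0101 with the scaling of all peaks, and the Ehhadh sum was 0.0275 within 1 kb. The Angptl4 start peak was 0.0479 with cyclic loess, and the Slc25a20 start peak 0.0213 with DESeq2, 0.0179 with cyclic loess and with only the groups compared, and 0.0037 with counts cut to whole numbers.

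Without 1 library, values on FPC ran from −0.0402 to 0.0507 at the Acadm start peak, −0.0591 to 0.1241 at the Ehhadh start peak, −0.0137 to 0.1867 for the Angptl4 sum, −0.0967 to 0.0334 for Ehhadh and −0.0480 to 0.0303 for Slc25a20. On CDAHFD they ran from −0.1921 to 0.0784 at the Angptl4 start peak, −0.0588 to 0.1327 at that of Ehhadh, −0.0426 to 0.1067 at that of Slc25a20, −0.1095 to 0.0351 for the Cpt1a sum, −0.1690 to 0.0198 for Ehhadh and −0.1418 to 0.0175 for Slc25a20.

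Of the summed genes, the Ppargc1a fall on CDAHFD was −0.33 within 1 kb (adjusted p = 0.0558, edgeR) and that of Creb3l3 −0.15 beyond 1 kb (adjusted p = 0.0525, edgeR), and the CDAHFD rise of Acadm was not called within 1 kb. Angptl4 was called higher on FPC beyond 1 kb (0.31) and lower on CDAHFD within 1 kb (−0.49), and lower on CDAHFD without control replicate 4 or advanced replicate 3. At single peaks, the rise 176 bp downstream of the Ehhadh start on CDAHFD was lost without advanced replicate 3, and the peak 3692 bp upstream of Cpt1a was called on FPC with DESeq2, with cyclic loess and without control replicate 4 (1.01). The Cpt1a peak 30554 bp downstream was called on CDAHFD without control replicate 1 (−0.95).

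The share of all called genes that were higher moved by over 10 percentage points under some settings. The scaling of all peaks gave 59.7% in place of 48.9% in mild FPC (library size alone 59.6%), 61.8% in place of 49% from mild to advanced FPC, 64.1% in place of 53.7% on CDAHFD, and 43.2% in place of 58.6% for the diet difference in advanced livers, where library size gave 43.6%, peaks within 1 kb 71.1% and peaks beyond it 42.4%. Peaks within 1 kb gave 69.5% in place of 52.7% for the difference in mild livers and 71.6% in place of 61% between controls, where DESeq2 gave 72.1% and only the groups compared 73.2%. Of called peaks, cyclic loess gave 45.6% in place of 56.1% from mild to advanced CDAHFD, and only the groups compared 86.8% in place of 75.6% between controls.

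No paired analysis was possible because no mouse gave more than 1 library and the replicate numbers only name libraries. Depth limits the weak peaks: the Fgf21 peak 2306 bp downstream had under 3 CPM in all controls. With 3 advanced mice per diet, changes not much larger than their SE could not be detected. Diet and weeks on diet cannot be told apart, and the labels name no batch.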
